A study of Homo sapiens with 6 samples.

Results

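The replication-dependent histone genes encode the linker histone H1 and the core histones H2A, H2B, H3 and H4 that package newly made DNA. The group was taken as the protein-coding genes of the GENCODE hg19 annotation named H2AC, H2BC, H3C or H4C with a number, plus H1-1 to H1-6 (older names HIST1H, HIST2H and HIST3H). It held 66 of the 20098 protein-coding genes on chromosomes 1 to 22 and X: 6 genes for H1, 17 for H2A, 16 for H2B, 13 for H3 and 14 for H4. H2BC7, H2BC8 and H4C6 were not analysed here. The genes were examined in 2 groups of HSC3 cells, an established line of oral squamous cell carcinoma (OSCC), harvested 72 h after transfection with a control siRNA (siCONT) or with an siRNA against DLEU1 (siDLEU1), a long noncoding RNA. Acetylation of histone H3 at lysine 27 (H3K27ac), a mark of active promoters and enhancers, and trimethylation at lysine 4 (H3K4me3), a mark of active promoters, were profiled by ChIP-seq. Each siRNA and mark had a single library, from 1 cell line and 1 DLEU1 siRNA, so nothing below could be checked in replicates, and p-values were not computed.

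Most histone genes of this kind lie in clusters, where genes of the different classes are intermingled and many H2A and H2B genes are transcribed in opposite directions from a shared promoter. They lack introns as a rule, are expressed in S phase, and give mRNAs that end in a stem-loop bound by SLBP instead of a poly(A) tail. Their transcription depends on NPAT, the factor that gathers at the clusters in the histone locus body, and on class-specific promoter elements.

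Of the 66 genes, 52 lay in 3 runs on chromosome 6. Run 1, chr6:25723625-26285866, held 31 genes over 562 kb. Run 2, chr6:27093676-27115341, held 5 genes over 21.7 kb, and run 3, chr6:27775257-27861669, held 16 genes over 86.4 kb. Chromosome 1 held 11 genes at chr1:149754245-149859515 (chr1q21, 105 kb) and the pair H2AC25 and H2BC26 at chr1:228622478-228650805 (chr1q42). H4C16 stood alone at chr12:14920933-14924065. All coordinates are those of hg19 (GRCh37).

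The sequences shown first are the shared promoters of 3 divergent pairs, from the base after one start to the base before the other, because the first and second pairs stood among the most strongly marked members and the third carried neither mark. They lie at chr6:26124155-26124399, chr6:27114635-27114884 and chr6:25726791-25727004 and are written on the plus strand of GRCh37. Capitals mark the letters CCAAT (the CCAAT box), TATAAA (the TATA box), ATTTGCAT (the octamer) and AAACACA (the H1 box), each on either strand, and neighbouring matches can overlap.
H2BC4/H2AC6: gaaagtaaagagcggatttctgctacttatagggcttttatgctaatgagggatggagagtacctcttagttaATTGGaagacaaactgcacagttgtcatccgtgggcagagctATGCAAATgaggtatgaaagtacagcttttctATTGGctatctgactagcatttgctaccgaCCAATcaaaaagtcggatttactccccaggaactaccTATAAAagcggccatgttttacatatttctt
H2BC12/H2AC12: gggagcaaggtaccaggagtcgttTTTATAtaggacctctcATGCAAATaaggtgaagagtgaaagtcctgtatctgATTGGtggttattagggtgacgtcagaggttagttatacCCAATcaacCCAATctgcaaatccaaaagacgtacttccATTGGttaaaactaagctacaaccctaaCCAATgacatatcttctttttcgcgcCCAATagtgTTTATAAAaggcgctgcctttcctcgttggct
H2AC1/H2BC1: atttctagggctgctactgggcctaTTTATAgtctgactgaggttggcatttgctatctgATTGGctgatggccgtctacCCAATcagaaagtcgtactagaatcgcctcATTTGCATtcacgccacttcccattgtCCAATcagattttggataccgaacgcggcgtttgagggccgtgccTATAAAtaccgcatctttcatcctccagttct
Each of the 3 sequences held 1 octamer, and the numbers of CCAAT matches were 3, 6 and 3, so that the unmarked testis pair H2AC1 and H2BC1 carried the same kinds of element as the marked pairs.

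The linker and H4 genes allow the same contrast between a marked and an unmarked gene of a class. The 200 bases before the start of H1-4, chr6:26156357-26156556 (plus strand), are set beside those of H1-6, the testis H1, at chr6:26108364-26108563 (minus strand), with the same capitals.
H1-4: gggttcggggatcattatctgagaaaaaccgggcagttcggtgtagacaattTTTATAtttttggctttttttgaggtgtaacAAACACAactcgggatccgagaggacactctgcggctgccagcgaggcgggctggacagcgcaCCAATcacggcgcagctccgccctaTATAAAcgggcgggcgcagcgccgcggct
H1-6: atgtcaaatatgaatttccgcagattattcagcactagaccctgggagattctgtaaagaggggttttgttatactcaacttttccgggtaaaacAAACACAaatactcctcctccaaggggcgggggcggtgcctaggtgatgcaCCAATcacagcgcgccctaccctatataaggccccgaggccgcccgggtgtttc
Both held 1 AAACACA and 1 CCAAT, and TATAAA occurred 2 times before H1-4 and 0 times before H1-6. The 200 bases before H4C11, chr6:27791670-27791869, a strongly marked H4 gene, are set beside those of the unmarked H4C9, chr6:27106861-27107060, both on the plus strand.
H4C11: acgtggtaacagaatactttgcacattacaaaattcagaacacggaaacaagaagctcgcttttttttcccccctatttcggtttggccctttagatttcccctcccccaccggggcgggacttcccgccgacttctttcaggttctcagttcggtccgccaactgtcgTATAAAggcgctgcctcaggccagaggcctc
H4C9: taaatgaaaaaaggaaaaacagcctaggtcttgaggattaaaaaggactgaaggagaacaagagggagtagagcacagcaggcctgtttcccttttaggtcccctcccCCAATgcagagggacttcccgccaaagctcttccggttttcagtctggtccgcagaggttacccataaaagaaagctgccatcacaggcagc
H4C11 held 1 TATAAA, and H4C9 held 1 CCAAT.

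Across the members, CCAAT occurred in the 300 bases from 250 before to 50 after the start of 55 genes, 83.3% of the 66, and in 35.9% of all protein-coding genes. TATAAA occurred in 44 (66.7%, against 9.82%), and ATTTGCAT in 24 (36.4%, against 1.58%). The octamer was found at 12 of 17 H2A and 12 of 16 H2B genes and at 0 of the H1, H3 and H4 genes. AAACACA was found at 6 of 6 H1 genes, at 9 members in all (13.6%), and at 4.20% of all genes. H4 genes held CCAAT least often, in 4 of 14. The promoters had a GC content of 44.2% (median), against 63.7% over all genes, with a nearly equal ratio of observed to expected CpG (0.772 and 0.773). Of the 5 members without either mark, 4 held CCAAT, 3 TATAAA, 2 ATTTGCAT and 1 AAACACA. These matches are descriptions of the letters only.

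The authors deposited a list of enriched regions for each library, in which each region has a fold enrichment over local background and a significance (−log10 p and q). The H3K27ac lists held 19705 regions (siCONT) and 17672 (siDLEU1), and the H3K4me3 lists 58582 and 56943. A region was assigned to a gene where it overlapped 1 kb on either side of any annotated transcription start site (TSS). The percentile of a gene is the rank of its region of highest fold enrichment within its own list, from 100 for the strongest, and a gene without a region has 0. Fold enrichment itself is not comparable between lists. The whole number of fragments at each summit was recovered from its fold enrichment and p, and gave estimated depths of 21.5 M and 29.4 M reads for H3K27ac and 28.4 M and 22.3 M reads for H3K4me3 (siCONT and siDLEU1). Summit coverage is that number as a multiple of the mean coverage of its library, and is given for the region with the most fragments at the gene. Intervals of coverage ratios are exact 95% intervals of the fragment counts and cover counting error only, not differences between libraries. Reads without molecular identifiers need not be independent molecules, so the counting error can be larger than these intervals show. All 8 squamous epithelial markers carried both marks, and 0 of 4 leukocyte and 0 of 3 testis markers carried either.

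In siCONT cells nearly all of the histone genes carried both marks. H3K27ac regions lay at 60 of 66 genes (90.9%, 95% Wilson interval 81.6 to 95.8), where 61.5% of all protein-coding genes had one. H3K4me3 regions lay at 61 of 66 (92.4%, 83.5 to 96.7), against 61.2% of all genes. After siDLEU1 the counts were 59 (89.4%, 79.7 to 94.8), against 58.5% of all genes, and 61, against 60.8%. The share of members that were marked was thus higher than the share over all genes in each of the 4 lists. The intervals treat genes as independent, but several members share a region, so they can be too narrow. With each region counted once, the H3K27ac share in siCONT was 87.2%.

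The unmarked members were the same under both siRNAs. H2AC1 and H2BC1, a pair known for expression in testis, H1-6, the testis linker histone, H4C7 and H4C9 had no region of either mark in any list. H2BC3 carried H3K4me3 alone under both siRNAs. H3C3 was the 1 member that had an H3K27ac region in siCONT and none in siDLEU1. That region was among the weakest of its list, 251 bp wide with 31 fragments and a percentile of 0.726. Over all genes with an H3K27ac region in siCONT, 5.14% had none in siDLEU1. No member gained an H3K27ac region, where 0.362% of the genes without one did. No member lost or gained an H3K4me3 region, and over all genes 3.07% lost one and 3.83% gained one. The siCONT H3K4me3 region at H2BC3 and H3C3 was overlapped by 0 regions of siDLEU1, and other regions in their windows were counted there.

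Ranked by fold enrichment, the marked members stood high for H3K4me3 and close to the median of marked genes for H3K27ac. The median H3K4me3 percentile was 94.0 in siCONT and 93.9 in siDLEU1, against 83.2 and 84.7 over all genes with a region. The median H3K27ac percentile was 72.4 and 73.5, against 71.4 and 69.1. Their H3K27ac coverage in siCONT was higher than over all genes (median 86.7, against 71.9), and so was the local background that fold enrichment is divided by (median 2.01 times the lowest of the list, against 1.13). The regions were also wide. The median width of the H3K27ac region was 1688 bp in siCONT, against 1071 bp over all genes, and that of the H3K4me3 region 2125 bp, against 964 bp. Several members share a region, so the 60 genes with H3K27ac in siCONT stood for 41 strongest regions, and members are not independent of each other.

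After siDLEU1, H3K27ac coverage was lower at each of the 59 members with a region in both lists, and by about as much as at other genes. The median of the ratios of siDLEU1 to siCONT was 0.603 (range 0.402 to 0.882) for the members and 0.617 for all 11726 genes with a region in both lists, of which 11582 were lower. At 6 members, beside 5.10% of all genes, the H3K27ac regions compared lay apart in the lists. H3C7, with the lowest ratio, was among them. H3K4me3 coverage was higher at 55 of 61 members and at 9751 of 11917 genes in all, with a median ratio of 1.30 (0.900 to 2.05) for the members, against 1.25 over all genes. The H3K4me3 regions compared lay apart at 4 members, beside 10.0% of all genes. H3C3, with the lowest ratio, was among them. A difference shared by most genes of a list cannot be told apart from a difference between the 2 libraries of a mark, and a lower signal in every cell cannot be told apart from fewer cells with the mark.

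**Figure D1:**
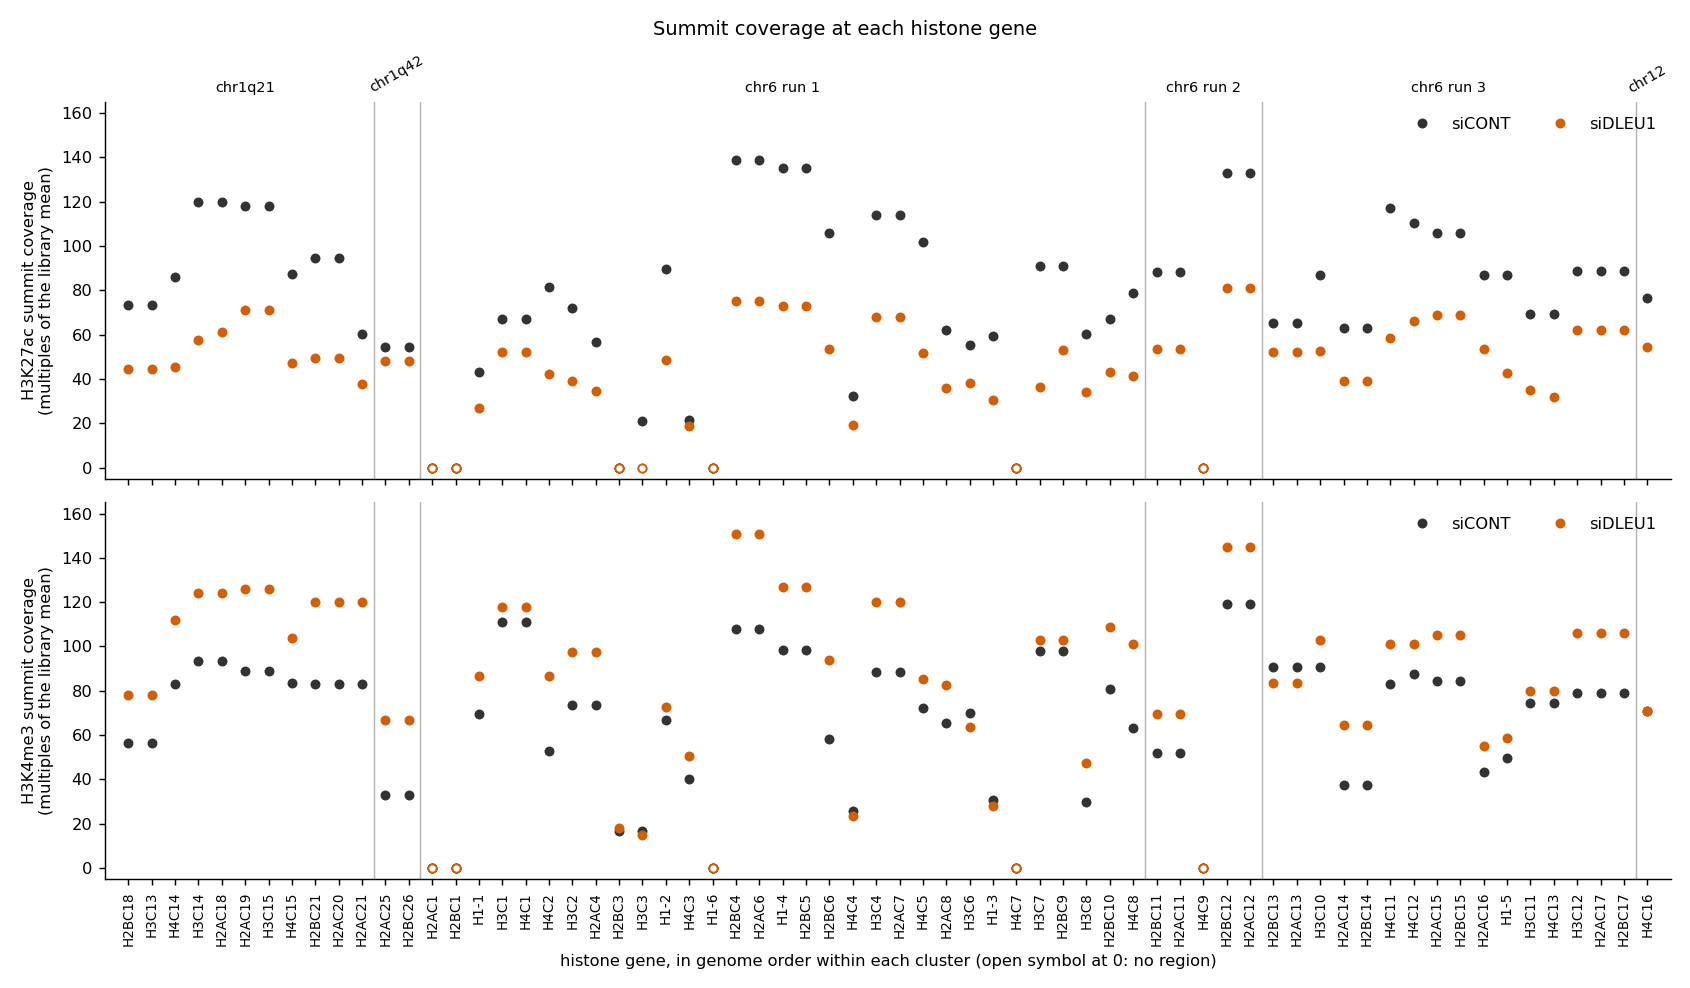
Summit coverage (y axis, multiples of the mean coverage of the library) of the region with the most fragments at each of the 66 histone genes (x axis, genome order within clusters), for H3K27ac above and H3K4me3 below. Dark points are the siCONT library, orange points the siDLEU1 library, and open symbols at 0 mark genes without a region. At all 59 genes with both points the H3K27ac coverage is lower in siDLEU1, and 55 of 61 H3K4me3 pairs are higher.

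**Figure D2:**
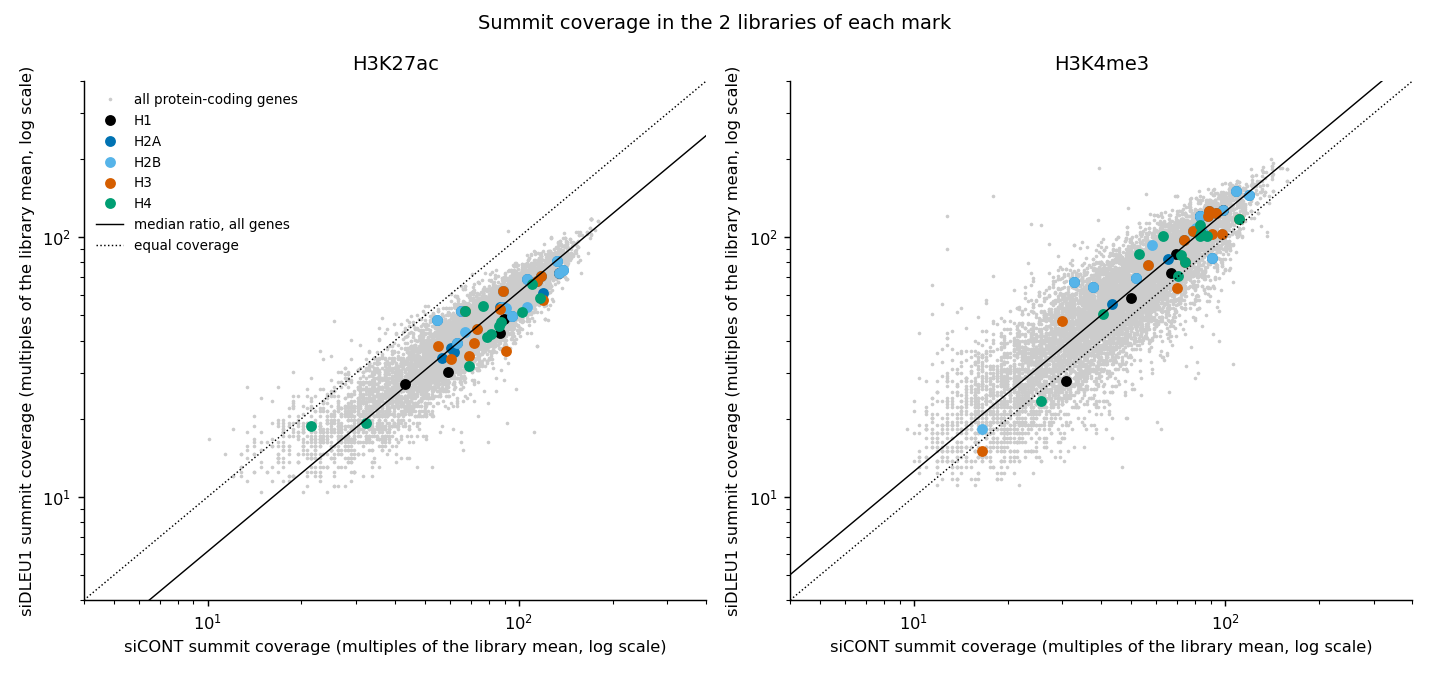
Summit coverage in siDLEU1 (y axis) against siCONT (x axis), both as multiples of the library mean on log scales, for all protein-coding genes with a region in both lists (grey) and the histone genes coloured by class. The solid line is the median ratio of all genes and the dotted line equal coverage. The histone genes lie along the solid line, with medians of 0.603 for H3K27ac and 1.30 for H3K4me3 beside 0.617 and 1.25 over all genes.

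The counting interval of the H3K27ac ratio lay below the median of all genes at 2 members, H3C14 and H3C7, and above it at 2, H2AC25 and H2BC26, which share a region. The siCONT region of H3C14 is shared with H2AC18 and was overlapped by 2 regions in siDLEU1. The stronger of these gave H2AC18 a ratio of 0.510 (0.400 to 0.648), an interval that holds the median. H3C14 also has a near-identical copy elsewhere on chromosome 1, so its value is uncertain. At H3C7 the regions with the most fragments lay apart in the lists. On the side of H3C7 itself the coverage was 49.8 in siCONT and 36.5 in siDLEU1. Over all genes marked in both lists, the shares were 2.05% below and 3.30% above. For H3K4me3 the interval lay below the median at 3 members (H3C6, H2BC13 and H2AC13) and above it at 6 (H2AC25, H2BC26, H4C2, H4C8, H2AC14 and H2BC14), beside 10.9% and 10.3% of all genes. Both H3K4me3 counts were under what these shares come to over 61 members, and both H3K27ac counts were close to it.

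The genes with an H3K4me3 interval above the median of all genes came from 4 regions. H4C2, an H4 gene of run 1, had 111 fragments in siCONT and 133 in siDLEU1, a coverage of 52.7 and 86.5 and a ratio of 1.64 (1.27 to 2.13). H4C8, at the end of the same run, had a coverage of 63.1 and 101 and a ratio of 1.61 (1.27 to 2.04). The divergent pair H2AC14 and H2BC14 in run 3 had 37.5 and 64.4, a ratio of 1.72 (1.26 to 2.34). None of these stood high in siCONT, where the median of the members was 78.8. The genes with an interval below the median were H3C6, with a coverage of 69.8 and 63.7 and a ratio of 0.913 (0.70 to 1.19), and H2BC13 with H2AC13, with 90.7 and 83.3 and a ratio of 0.918 (0.728 to 1.15). The H3K4me3 region at H3C6 was 1554 bp wide in siCONT and was overlapped by 2 regions in siDLEU1, of 674 and 719 bp. At H2BC13 and H2AC13 the regions with the most fragments lay apart in the lists, and the one in siCONT was the 3524 bp region that reaches H3C10.

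The 6 linker histone genes encode the H1 proteins that bind the DNA entering and leaving the nucleosome. Of the 5 that were marked, H1-4 had the highest H3K27ac coverage, 135 in siCONT and 73.1 in siDLEU1. H1-2 had 89.4 and 48.5, and H1-5 had 86.7 and 42.8. H1-3, at 59.2 and 30.3, and H1-1, at 43.0 and 27.1, were the lowest of the class in both libraries. The ratios ran from 0.493 (0.369 to 0.656) at H1-5 to 0.631 (0.429 to 0.924) at H1-1, with overlapping intervals. The siCONT region of H1-5, 3048 bp wide, is shared with H2AC16 and was overlapped by 4 regions in siDLEU1. Another of these gave H2AC16 a ratio of 0.620 (0.474 to 0.809), so the ratio at H1-5 depends on the region compared. The H3K4me3 coverage was 98.3 and 127 at H1-4, 69.3 and 86.5 at H1-1, 66.9 and 72.8 at H1-2, and 49.8 and 58.5 at H1-5. H1-3 was the exception, with 30.9 in siCONT and 28.0 in siDLEU1, a ratio of 0.906 (0.602 to 1.35) whose interval holds both 1 and the median of all genes. H1-4, the most marked of the linker genes, shares its strongest region with the neighbouring H2BC5.

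The H2A and H2B genes encode the partners of the H2A–H2B dimer and held the strongest regions. H2BC4 and H2AC6, which share one, had the highest H3K27ac coverage of all members in siCONT, 139 (206 fragments), and 75.1 in siDLEU1 (144 fragments), a ratio of 0.543 (0.435 to 0.675). The siCONT summit lay on the side of H2AC6 and the siDLEU1 summit compared with it on the side of H2BC4. On the H2AC6 side the siDLEU1 coverage was 68.9 (132 fragments). The H3K4me3 coverage of H2BC4 and H2AC6 was 108 and 151, a ratio of 1.40 (1.16 to 1.69). H2BC12 and H2AC12 in run 2 had an H3K27ac coverage of 133 and 80.9, the highest in siDLEU1, and an H3K4me3 coverage of 119 and 145. These pairs were thus high in both marks and both libraries. At the other end of the class, H2BC3 had no H3K27ac region and an H3K4me3 coverage of 16.6 and 18.2, from a region in siCONT that also reaches H3C3. The H3K4me3 region of H2BC3 in siDLEU1 was a different one. The median H3K27ac ratio was 0.610 for H2A and 0.609 for H2B, and the median H3K4me3 ratio 1.35 for both.

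The H3 genes encode the replication-dependent forms of the histone that carries both marks, and the H4 genes its partner in the tetramer. H3C14 had the highest H3K27ac coverage of the H3 genes in siCONT, 119.7, from a region it shares with the H2A gene H2AC18, and 57.4 in siDLEU1. H3C3 was the lowest H3 gene, with an H3K27ac coverage of 20.8 in siCONT, and an H3K4me3 coverage of 16.6 and 15.0 in regions that lay apart. Among the H4 genes, H4C11 had the highest H3K27ac coverage in siCONT, 117 (58.4 in siDLEU1), and H4C12 in siDLEU1, 66.3, while H4C3 was lowest at 21.5 and 18.8, from 32 and 36 fragments, a ratio of 0.873 (0.527 to 1.45) that counting error leaves wide. H3C1 and H4C1, which share a region in run 1, stood out for H3K4me3 in siCONT, where their coverage of 111 was second only to that of H2BC12 and H2AC12. In siDLEU1 it was 118, a ratio of 1.07 (0.877 to 1.30), and their H3K27ac coverage was 67.2 and 52.2, a ratio of 0.776 (0.582 to 1.03). Both ratios were closer to 1 than the medians of all genes, within counting error of them. H4C4 was weak too, at 32.3 and 19.3 for H3K27ac and 25.6 and 23.4 for H3K4me3. The median H3K27ac ratio was 0.598 for H3 and 0.532 for H4, beside 0.541 for H1, so that the class medians all lay between 0.532 and 0.610.

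By cluster, the genes at chr1q21 had the lowest median H3K27ac ratio and genes at chr1q42 the highest. All 11 genes at chr1q21 were marked, with H3K27ac ratios between 0.480 and 0.621 (median 0.537) and H3K4me3 ratios between 1.25 and 1.45 (median 1.38). The medians in runs 1, 2 and 3 on chromosome 6 were 0.561, 0.609 and 0.619 for H3K27ac and 1.26, 1.28 and 1.23 for H3K4me3. H2AC25 and H2BC26 share the strongest region at chr1q42, which had 81 fragments in siCONT and 92 in siDLEU1 for H3K27ac, a coverage of 54.5 and 48.0 and a ratio of 0.882 (0.647 to 1.20). Its H3K4me3 region had 69 and 103 fragments, a coverage of 32.8 and 67.0 and a ratio of 2.05 (1.49 to 2.82), the highest of the members for either mark. H4C16, the gene on chromosome 12, had 76.6 and 54.3 for H3K27ac and 70.7 and 70.9 for H3K4me3. In siCONT the H3K27ac coverage ranged from 60.5 to 119.7 at chr1q21, from 20.8 to 139 in run 1, from 88.1 to 133 in run 2 and from 63.2 to 117 in run 3. In siDLEU1 it ranged from 37.6 to 71.0, 18.8 to 75.1, 53.7 to 80.9 and 31.8 to 68.9. Run 1 thus held the weakest marked genes in both libraries and the strongest in siCONT, run 2 held the strongest in siDLEU1, and the ranges of the clusters overlapped in each library. The order of the clusters rests on few regions, since the 11 genes at chr1q21 stood for 7 strongest H3K27ac regions in siCONT and the pair at chr1q42 for 1.

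The remaining genes of chr1q21 were H2BC18 and H3C13, which share a region (H3K27ac 73.3 and 44.4, H3K4me3 56.5 and 78.0), and H2BC21 and H2AC20, a divergent pair (94.8 and 49.6, and 83.1 and 120.3). H4C14 had an H3K27ac coverage of 86.1 and 45.4, and H4C15 of 87.4 and 47.0. H2AC21 had 60.5 and 37.6, a ratio of 0.621 (0.449 to 0.856). For 8 of the 11 genes the 2 kb around the start has a near-identical copy elsewhere on chromosome 1. H4C14 and H4C15, and H3C14 and H3C15, are 100% identical over that window, and H2AC18 and H2AC19 are 99.57% or more over the part that aligned. H2BC18 and H3C13 match a stretch outside the cluster, chr1:120903661-120906996, at 98.25% and 98.31%. Reads from such copies can be placed at either, so the values of these 8 genes are uncertain.

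H2AC18 and H2AC19 show how a percentile can part genes whose listed coverage hardly differs. Both are among the genes with a near-identical copy, so how alike their coverage truly was is uncertain. In siCONT their H3K27ac coverage was 119.7 and 118, but their percentiles were 99.3 and 67.4, and the local background, in control reads, was 0.524 at the first and 2 at the second. In siDLEU1 the coverage was 61.1 and 71.0, the percentiles 78.2 and 99.0, and the local background 1 and 0.458. The percentiles of the pair changed places between the libraries, and so did the order of their local backgrounds.

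Ranked by fold enrichment, the H3K27ac percentiles of single members moved widely in both directions. Of the 60 members with a region in siCONT, 17 were lower by at least 20 points in siDLEU1 and 11 higher, beside 18.8% and 6.96% of all genes. The median change over the members was −0.581 points, against −4.32 over all genes. The genes that were lower included 3 of 5 H1 genes (H1-1, H1-3 and H1-5), 3 H2A, 4 H2B, 5 H3 and 2 H4 genes. Those that were higher included 1 H1 gene (H1-2), 2 H2A, 1 H2B, 2 H3 and 5 H4 genes. H2BC11 and H2AC11 were higher by just under the 20 points, at 71.6 and 91.6.

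The lowest changes were at H2AC21 (67.9 to 15.3), H3C8 (53.0 to 10.8), H1-3 (52.0 to 22.2) and the pair H2BC12 and H2AC12 (96.4 to 67.8). The highest were at H2BC13 and H2AC13 (37.3 to 82.2), H4C12 (47.7 to 84.1), H4C15 (50.6 to 82.9) and H2AC19 with H3C15 (67.4 to 99.0). Coverage was lower in siDLEU1 at each of these genes, with ratios of 0.561 at H3C8, 0.512 at H1-3, 0.608 at H2BC12, 0.80 at H2BC13, 0.601 at H4C12, 0.537 at H4C15 and 0.603 at H2AC19. At H2AC21 the regions of highest fold enrichment in the lists were different ones, and the region with the most fragments had the ratio of 0.621 given above. The regions compared at H2BC13 and H2AC13 were also different ones. The 4 highest percentiles in siCONT belonged to H2BC4 and H2AC6 (99.8, and 96.7 in siDLEU1), H2AC18 (99.3 and 78.2) and H3C14 (99.3 and 73.5), followed by H2BC5 (98.3 and 99.2). The lowest among marked genes were H3C3, H4C4 (10.7 and 16.7), H4C3 (11.8 and 11.8), and H2AC13 and H2BC13.

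The local background moved with the percentile. It was the denominator of the fold enrichment, and is compared here between lists after division by the lowest value of each list. Of the 17 members that were lower by at least 20 points, 15 had a higher background in siDLEU1 than in siCONT (median ratio 1.40), and all 11 that were higher had a lower one (median ratio 0.359). The 31 members within 20 points had a median ratio of 0.963. Coverage ratios in these sets overlapped, with medians of 0.512 (0.402 to 0.631), 0.603 (0.520 to 0.80) and 0.610 (0.50 to 0.882). Over all genes with a region in both lists, 1740 of 2093 that were lower had a higher background, and 792 of 860 that were higher had a lower one. Their coverage ratios also moved with the percentile, with medians of 0.563 for the lower, 0.690 for the higher and 0.624 for those within 20 points. The part of the background and of the coverage in the change of percentile was not tested.

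**Figure D3:**
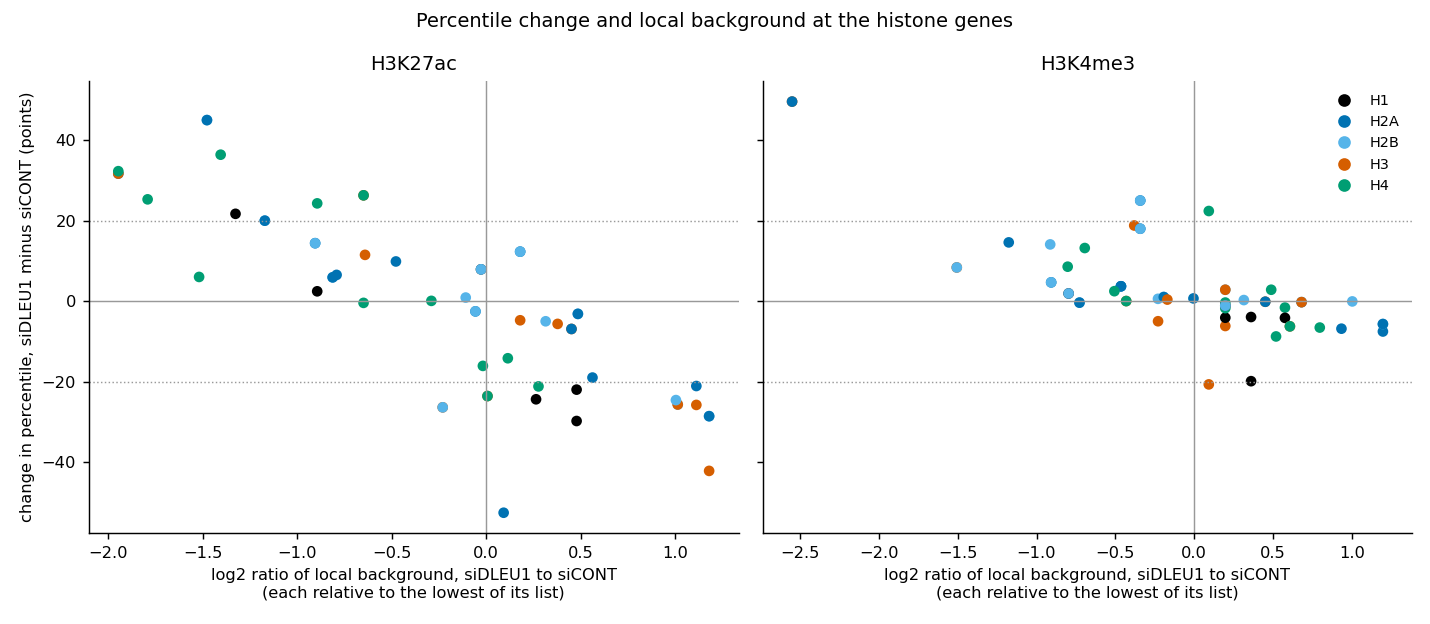
Change in percentile from siCONT to siDLEU1 (y axis, points) against the log2 ratio of the local background between the libraries (x axis, each relative to the lowest of its list), for histone genes with a region in both lists, coloured by class. Dotted lines mark 20 points either way. Members that share a region coincide. For H3K27ac, 15 of the 17 points at or under the lower line lie right of 0, and all 11 at or over the upper line lie left of it.

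At many histone genes this background equalled a whole number of control reads, such as 1, 2, 3 or 5, to within 0.01 reads of the recovered value. That was so for 27 of 60 members in the siCONT H3K27ac list (45.0%, against 29.1% of all genes) and for 13 of 59 in siDLEU1 (22%, against 25.9%). At H3C8, for example, it was 1 in siCONT and 2 in siDLEU1, and at H4C12 it was 3 and 1. When the members were ranked by the number of fragments instead of fold enrichment, only H3C7 and H4C13 were lower by at least 20 points and 0 were higher, beside 9.08% and 0.882% of all genes. The median percentile by fragments was 83.8 in siCONT and 79.8 in siDLEU1, against 71.0 and 67.9 over all genes. At H3C7 the regions compared were different ones, since the strongest in siCONT lay on the side of H2BC9.

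The H3K4me3 percentiles moved less, though with a median of 94.0 in siCONT many members had little room to rise. Of 61 members, 1 was lower by at least 20 points, H3C3 (33.1 to 12.4), beside 8.51% of all genes. Next came H1-3 (61.4 to 41.4), H4C16 (94.5 to 85.7), H2AC18 (97.2 to 89.7) and H2AC16 (84.4 to 77.5). The 5 that were higher, beside 7.15% of all genes, were H3C2 and H2AC4, which share a region (46.8 to 96.4), H2AC25 and H2BC26 (64.1 to 89.1) and H4C4 (21.0 to 43.4). At H3C3 and H4C4 the regions of highest fold enrichment lay apart in the lists. In the region with the most fragments, H4C4 had a coverage of 25.6 in siCONT and 23.4 in siDLEU1. At H3C2 and H2AC4 the coverage was 73.6 and 97.6, a ratio of 1.33 (1.05 to 1.67) close to the median of all genes, and the local background was 5 in siCONT and 0.744 in siDLEU1. Ranked by fragments, 0 members were lower and 0 higher by 20 points, beside 4.93% and 3.69% of all genes. The median change by fold enrichment was 0.264 points, against 0.371.

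H3K27ac regions at the histone genes were narrower and more numerous after siDLEU1. At 51 of 59 members the region of highest fold enrichment was narrower, as it was at 10553 of 11726 genes in all, with a median ratio of widths of 0.594, against 0.794 over all genes. The distinct regions at member starts numbered 57 in siCONT and 72 in siDLEU1, against 15580 and 15211 at all genes, while the length they covered went from 87.8 to 66.3 kb, a ratio of 0.756, against 0.744 over all genes, and their mean width from 1540.0 to 921 bp. Of the 57 regions in siCONT, 18 were overlapped by 2 or more regions of siDLEU1 (31.6%, 21.0 to 44.5), where the share over regions at all genes was 12.1%. Wide regions are split more often, and of the 43 that were at least 1 kb wide, 17 were split (39.5%, 26.4 to 54.4), beside 27.8% of such regions at all genes, a share inside the interval of the members. In the other direction, 1 of 72 siDLEU1 regions was overlapped by 2 or more of siCONT (1.39%). The siDLEU1 library of H3K27ac had lower summit coverage than siCONT at most genes, and the part of that in the splitting was not tested.

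The widest region of H3K27ac at any member, 4447 bp over H2BC4 and H2AC6 in siCONT, was overlapped by 3 regions of 477, 720 and 2759 bp in siDLEU1. The 3048 bp region over H2AC16 and H1-5 was overlapped by 4 regions of 300, 554, 347 and 710 bp. The 2944 bp region at H4C15 was overlapped by 3 of 1135, 649 and 203 bp, and the 2492 bp region at H3C12, H2AC17 and H2BC17 by 3 of 982, 362 and 437 bp. In each of these the siDLEU1 regions lay apart where siCONT had 1 run.

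H3K4me3 regions showed no such difference in number. There were 68 distinct regions at member starts in both lists, covering 102 and 99.7 kb, a ratio of 0.981, against 0.890 over all genes. Of the 68 in siCONT, 8 were overlapped by 2 or more in siDLEU1 (11.8%, 6.08 to 21.5), beside 6.89% at all genes. All 8 were at least 1 kb wide, and they made up 18.6% (9.74 to 32.6) of the 43 of that width, where the share at all genes was also 18.6%. One of them, 3524 bp wide in siCONT, reached from H2BC13 and H2AC13 to H3C10 and was overlapped by regions of 1725 and 1337 bp.

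The summits of H3K27ac lay mostly just inside the genes. In siCONT, 34 of the 41 strongest H3K27ac regions (82.9%) had their summit within 500 bp downstream of the nearest member start, against 69.0% over all genes, at a median distance of 271 bp. In siDLEU1 this held for 31 of 41 (75.6%, against 70.7%), at a median of 229 bp. For H3K4me3 the counts were 20 of 40 in siCONT (50%, against 51.9%) and 26 of 42 in siDLEU1 (61.9%, against 59.8%). In siCONT, 24 of these 40 H3K4me3 summits lay inside the gene (60.0%), against 78.8% over all genes. This share depends on the length of the genes, which was not matched between the sets. Fewer H3K4me3 than H3K27ac summits thus lay close downstream of the start, at histone genes as at other genes.

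Divergent starts within 1 kb of each other formed 11 pairs, 10 of an H2A and an H2B gene and 1 of H3C7 with H2BC9. The starts lay 194 to 979 bp apart (median 244), with 10 pairs under 300 bp. All pairs but H2AC1 and H2BC1 were marked in each list. Regions with their summits on both sides, and a space between the flanking regions, were found in 8 pairs for H3K27ac in siCONT and 9 in siDLEU1, and in 8 and 9 for H3K4me3. The space had a median of 152 bp (126 to 376) for H3K27ac in siCONT and 301 bp (179 to 939) in siDLEU1, and of 118 bp (74 to 912) and 141 bp (118 to 205) for H3K4me3. At H3C7 and H2BC9, the widest pair, a further region lay inside that space in the siDLEU1 H3K27ac and siCONT H3K4me3 lists.

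Only at H2BC4 and H2AC6 in the siCONT H3K27ac list did 1 region cover both starts. In siDLEU1 the regions on the 2 sides of this promoter ended at 26124170 and began at 26124377, leaving 206 bp that hold the octamer, all 3 CCAAT matches and the TATAAA of the sequence printed above. At H2BC12 and H2AC12 the space was 175 bp in siCONT and 269 bp in siDLEU1. The H2AC14 and H2BC14 pair had regions on the H2AC14 side only, with an H3K27ac coverage of 63.2 and 39.1 and an H3K4me3 coverage of 37.5 and 64.4.

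**Figure D4:**
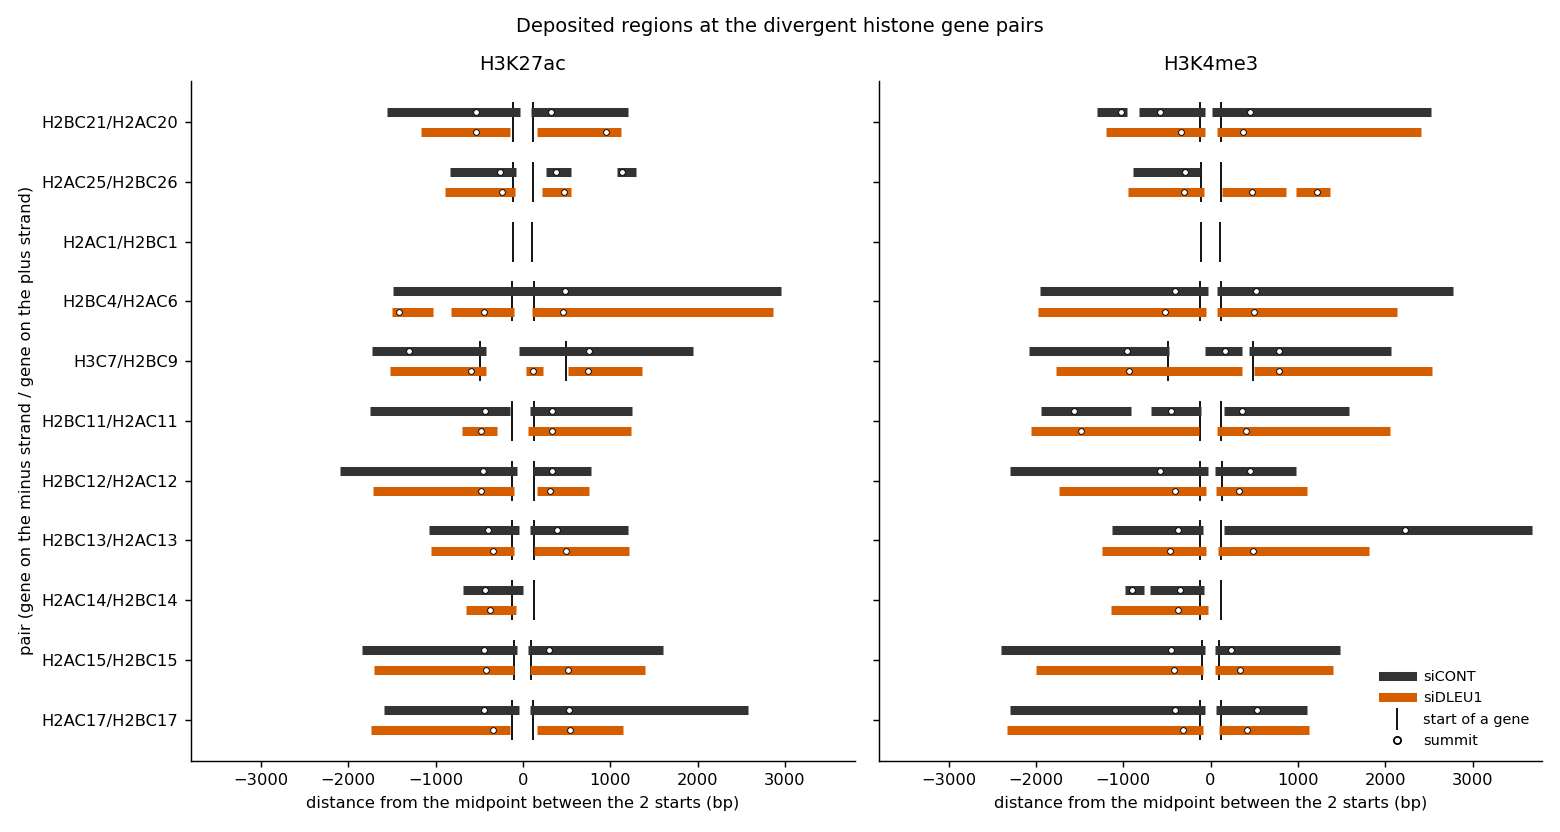
Deposited regions at the 11 divergent pairs (rows), by distance from the midpoint between the starts (x axis, bp), for H3K27ac on the left and H3K4me3 on the right. Bars are regions (dark, siCONT; orange, siDLEU1), open circles their summits and vertical ticks the starts. The space around the midpoint is free of an H3K27ac region in most pairs. Its median is 152 bp over the 8 pairs flanked in siCONT and 301 bp over the 9 flanked in siDLEU1. At H2AC25 and H2BC26 it is narrower in siDLEU1 (340 and 307 bp). H2AC1 and H2BC1 have no bar.

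Genes that act on the histone genes were compared with them from lists drawn up for this purpose. NPAT had an H3K27ac percentile of 71.8 in siCONT and 71.7 in siDLEU1 and an H3K4me3 percentile of 84.7 and 68.7. CASP8AP2 (FLASH), a partner of NPAT in the histone locus body, had 76.7 and 70.7, and 68.2 and 80.6. SLBP had 58.1 and 48.2, and 85.8 and 99.3. HINFP, a transcription factor of H4 genes, had 70.0 and 77.4, and 68.6 and 85.4. All 4 kept both marks. Over all genes, 61.5% had an H3K27ac region in siCONT and 58.5% in siDLEU1, and 61.2% and 60.8% an H3K4me3 region. Of the 25 regulators and pre-mRNA processing genes listed, 23 (92.0%) had an H3K27ac region in siCONT and 22 (88.0%) in siDLEU1. An H3K4me3 region lay at 22 of them (88.0%) in both lists. The largest decreases in H3K27ac percentile among them were at ERI1, an exonuclease that trims histone mRNA (89.0 to 57.4), and NFYA, a subunit of the factor that binds CCAAT (60.2 to 36.6). The largest increases were at SYMPK, a scaffold of 3′ end processing (63.7 to 81.0), and CDK2, the kinase that phosphorylates NPAT (70.8 to 88.0).

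Of the 12 replication-independent histone genes, 11 (91.7%) had an H3K27ac region in siCONT and 10 (83.3%) in siDLEU1. An H3K4me3 region lay at 11 of them (91.7%) in both lists, beside the shares over all genes given above. H2AJ went from an H3K27ac percentile of 98.4 to 81.2, while H1-10 went from 45.3 to 68.2 and CENPA, the centromeric H3, from 76.4 to 84.6. All 12 histone chaperones had an H3K27ac region in both lists. CHAF1B and CHAF1A, subunits of the assembly factor CAF-1, went from 56.8 to 19.8 and from 61.6 to 33.4, and ASF1B and IPO4, a chaperone and an importin of new histones, from 51.3 to 88.0 and from 63.4 to 84.8. All 24 genes of S phase DNA replication had one too, with the largest decreases at GINS1 (95.2 to 37.3) and CDT1 (73.9 to 42.8) and the largest increases at MCM3 (54.4 to 93.9) and RPA2 (38.7 to 67.7), all parts of the replication machinery. Each of these lists thus held H3K27ac percentile changes in both directions, as did all genes with a region in siCONT (7711 lower, 4651 higher). The H3K27ac coverage of the region of highest fold enrichment was lower in siDLEU1 at every gene of these lists marked in both libraries, with ratios of 0.434 to 0.836 at 22 regulators, 0.515 to 0.718 at 10 replication-independent histone genes, 0.507 to 0.872 at 12 chaperones and 0.466 to 0.914 at 24 S phase genes. At MCM3, for example, whose percentile was higher, the coverage was 94.1 and 67.3, at ASF1B 58.5 and 50.1, and at SYMPK 63.9 and 44.9. The local background at these genes was not examined.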

How the data were processed

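The analysis started from 4 deposited peak lists, covering H3K27ac and H3K4me3 under siCONT and siDLEU1. Ion Proton reads had been aligned to hg19 by the authors using bowtie2, with peaks called by MACS2 and annotated by HOMER. The deposited lists hold, per peak, the fold ratio over local background and the −log10 of the p-value and q-value from MACS2. The deposited score column was not used. Input libraries were not analysed here, and the settings of MACS2 are not given in the sources used here.

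The members and lists were chosen with earlier results of these data known. Starts were those of all GENCODE 44 transcripts lifted to GRCh37. Overlap meant at least 1 bp. Fragment numbers were solved from fold enrichment and p, matched the p of 100% of peaks in each list, and were recovered for 100% of 3994 simulated peaks. Depth in reads assumes 2.7 Gb of mappable genome, but coverage ratios do not. Copies were searched with BLAST at 95% identity or more. With 1 library per group, no test was made.

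Genes were named by rule: members marked under 1 siRNA, the 5 highest and lowest in H3K27ac percentile, the 5 largest falls and rises of each mark, members on chromosome 1 or 12, H1 genes, and the 2 largest falls and rises of other lists. The other members given with values, among them H2BC3, H3C1, H4C1, H4C2, H4C8, H3C6, H3C7, H4C11, H2BC11, H2AC14 and the genes of split regions, were chosen after their values were seen. One gene that this rule names is not reported here. 1 endothelial marker was not matched. Of the endothelial and fibroblast markers, VWF carried H3K4me3 and COL1A1 both marks.

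Python 3.11.15, pandas 2.3.3, numpy 2.4.6, SciPy 1.17.1, BLAST 2.17.0 and samtools 1.23.1 were used.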

Additional observations from a re-analysis of the deposited data

How the results depend on the processing

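There was 1 library per siRNA and mark, so no library could be left out. No paired analysis was possible because the groups compared hold 1 library each. Across 18 results and 12 alternative settings, 119 of 140 values stayed within the interval of the main value (shares and medians) or within 1.5 times of it (counts and ratios). Alternatives for coverage ratios, and some for splitting, were chosen after seeing the data. The 17 H3K27ac decreases of at least 20 points became 10 when ranked by −log10 p, 2 by fragments and 11 with each region counted once, and the 11 increases became 4 by −log10 p and 0 by fragments. The 17 wide H3K27ac regions that were split became 9 under a −log10 q minimum of 10, and 1 after regions within 1 kb were stitched, which joins neighbours by construction. The 1 H3K4me3 decrease became 0 with a window of 3 kb, a −log10 q of at least 10, equal numbers of regions, ranking by fragments or each region once, 2 by −log10 p and 5 for the region nearest to the TSS. The 5 H3K4me3 increases became 11 with a −log10 q of at least 10, 0 by fragments and 3 with each region once. The 8 split H3K4me3 regions became 3 with that q and 1 when stitched, and the 68 distinct regions became 38 when stitched. The ratio of summed H3K4me3 width, 0.981, became 1 with a window of 0.5 kb. Other causes were not tested. With 1 start per gene, the H3K27ac percentile of H2BC6 went from 97.8 to 16.4 in siCONT and from 73.2 to 21.5 in siDLEU1, because its stronger region lies at another start.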

Other observations

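Histone pseudogenes inside the clusters or near them were marked mostly where they lie beside a member. In the siCONT H3K27ac list, H2BC19P, H2AC10P, H4C10P and H2BC16P had the same strongest region as a member, at percentiles of 99.3, 74.2, 37.3 and 74.4. H2AC9P shared a region of H1-3 (52.0) in siCONT and had none in siDLEU1. H3C9P, which lies beyond the end of run 1, had a region of its own in siCONT, with a percentile of 33.4 and a coverage of 32.3. It had none in siDLEU1. The protein-coding genes H3-4, H3-5, H3-7 and H2BC12L had no region of either mark. H1-8, an oocyte linker histone, had an H3K4me3 region of low rank in siCONT (11.8) and no H3K27ac region.

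Of the 7 other protein-coding genes inside the runs on chromosome 6, the 4 SLC17 transporter genes had no region of either mark. TRIM38 had H3K27ac percentiles of 83.2 in siCONT and 62.7 in siDLEU1, and HFE, the iron regulator mutated in hemochromatosis, had 90.1 and 80.3. In run 1, 92.2% of the length covered by H3K27ac in siCONT lay in regions at member starts, and in run 3 it was 100%.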
